A study of Mus musculus with 39 samples.

Results

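Loss of CD163 in the livers of mice fed chow was examined in 9 of the 39 liver libraries of the series, 4 from knockout and 5 from wildtype mice. The libraries were chosen by their labelled diet and genotype alone. The mice were male littermates from crosses of heterozygous C57BL/6NTac animals carrying the allele CD163tm1(KOMP)Vlcg, so that knockouts lack Cd163 in every cell and not in macrophages alone. From 6 weeks of age, both chow groups received a maintenance chow and plain water for 8 weeks, whereas the other 30 mice, 15 of each genotype, ate a Western diet and drank water with fructose. RNA came from snap-frozen liver, each library is taken here as 1 mouse, and knockout chow is called A to D and wildtype chow A to E, as labelled. The labels do not say which mice shared a litter. The p-values from edgeR rest on the spread within the groups of all 39 libraries, and those of the permutation test on chow livers alone.

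CD163 is a receptor on the surface of resident macrophages, in the liver the Kupffer cells. It binds complexes of haemoglobin and haptoglobin, which form when red cells break in the circulation, and carries them into the cell. There haem oxygenase opens the haem ring and releases iron, which is stored in ferritin or exported by ferroportin, while hepcidin from hepatocytes limits the export.

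Cd163 was the 1 gene of 15296 tested that passed, at 0.00654% of the tested genes, and it was lower in all 4 knockout livers. Haptoglobin, hemopexin and 26 other acute phase genes had lower means in knockout livers. The size of this difference was largely set by 2 wildtype livers, and without them most of the genes stayed lower by a small median. On Western diet 27 of the 28 also had a negative log2 fold change. The markers of Kupffer cells other than Cd163 and Spic, and the genes of iron storage, lay on both sides of zero. Genes of cholesterol synthesis were low in 1 liver of each genotype, and genes of lipid droplets and fat uptake were highest in 1 knockout liver.

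The total count lay between 11410535 and 18721406 over the 9 libraries. Values are given as CPM, which are counts relative to the library total as scaled by TMM, and a log2 fold change is knockout minus wildtype from edgeR, with its SE. Hepatocyte markers were high in each of the 9 libraries, with Alb, serum albumin, between 20130 and 46510 CPM and Apoa1 between 7953 and 13600 CPM. Of the 20 hepatocyte markers, 16 had a negative log2 fold change and 0 passed (median -0.0914). Without wildtype chow A and knockout chow D, 18 were negative (median -0.151). Each library was also placed on 532 genes that differed between the diets. Genes and scale came from 35 libraries, without wildtype chow A, knockout chow D, wildtype Western diet A and knockout Western diet M. On the scale, the mean of the other 7 chow libraries is 0 and that of the other 28 Western diet libraries is 1, by construction. The libraries labelled wildtype chow A and knockout chow D were at 0.912 and 0.988, and the other 7 chow libraries were between -0.0652 and 0.0846. The labels give no reason, and the fit, the function lists and the counts of genes without overlap were also computed without both. By library number, wildtype A follows knockout A to C, and knockout D follows wildtype B to E. Once both are left out, the block of library numbers and the genotype cannot be told apart.

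**Figure D1:**
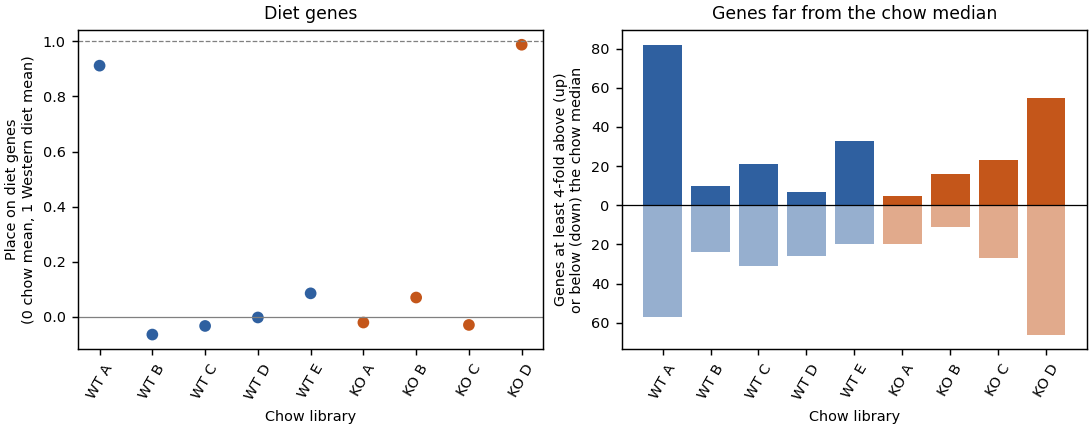
Each chow library on the diet genes (left, unitless, 0 and 1 are the means of the chow and Western diet libraries that set the scale) and its number of genes at least 4-fold above (dark bars, up) or below (pale bars, down) the median of the 9 libraries (right), with wildtype in blue and knockout in orange. Wildtype A and knockout D did not set the scale. Wildtype A (82 above, 57 below) and knockout D (55 above, 66 below) stand apart on both, and wildtype E has 33 genes above.

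Cd163 was at 12.5, 13.1, 4.95, 5.21 and 7.94 CPM in wildtype A to E and at 0.440, 0.746, 0.678 and 0.540 CPM in knockout A to D. The groups did not overlap, and wildtype A and knockout D stood with their labelled genotype. The means were 8.74 ± 3.89 CPM (SD, n = 5) and 0.601 ± 0.138 CPM (SD, n = 4), and the knockout mean was 6.88% of the wildtype mean. With edgeR its log2 fold change came to -3.86 (SE 0.53), at an adjusted p of 1.27e-04. An exact 2-sided permutation test over the 126 splits of the 9 livers gave p = 0.0159, the smallest it allows. Without wildtype A and knockout D edgeR gave -3.67 (SE 0.61) at an adjusted p of 0.0104, and Cd163 was again the 1 gene called, 0.00643% of 15544 tested. The exact permutation p over 35 splits was then 0.0571, again the smallest it allows, so that this test cannot reach 0.05 with 7 livers. With limma voom and sample quality weights the fold change was alike at -3.81, but its adjusted p of 0.451 did not pass. The counts do not say whether the remaining reads fall on the deleted part of the gene, since the table gives 1 value per gene.

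The 4 nearest annotated and tested genes on each side of Cd163 did not pass the test. Clec4a3, Clec4a2 and Clec4n, C-type lectin receptors of myeloid cells, had log2 fold changes of 0.04 (SE 0.48), -0.32 (SE 0.65) and -0.28 (SE 0.57). Pex5, the import receptor of peroxisomes, was at 0.03 (SE 0.13), C1rl, a complement C1r-like protease, at -0.09 (SE 0.12) and Clstn3, a calsyntenin, at 0.35 (SE 0.53). Vmn2r20, a vomeronasal receptor gene, was at 0.22 (SE 0.48) and Gm44096 at 0.29 (SE 0.34).

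The ligand of CD163 was next. Hp, haptoglobin, was at 6657, 3275, 3465, 3285 and 13450 CPM in wildtype A to E and at 3256, 2479, 3627 and 2386 CPM in knockout A to D. Wildtype A and E were the highest, and wildtype B to D lay within the knockout range. The log2 fold change of -1.04 (SE 0.49) did not pass (edgeR adjusted p = 1.00). Every gene other than Cd163 had this adjusted p of 1.00, or from 0.982 to 1.00 without wildtype A and knockout D, and it is not repeated below.

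Hpx, hemopexin, the plasma protein that binds free haem, was at 4996, 3420, 3053, 2690 and 12460 CPM in wildtype and at 3213, 2052, 3683 and 2580 CPM in knockout livers. It was again highest in wildtype A and E (log2 fold change -0.89, SE 0.45). Hmox1, the inducible haem oxygenase, was at 32.5, 19.5, 12.8, 11.8 and 25.0 CPM in wildtype and at 10.8, 16.4, 13.1 and 14.8 CPM in knockout livers. The same 2 wildtype livers were highest, and wildtype C and D lay within the knockout range (-0.56, SE 0.42). Lrp1, the receptor that takes up the haem and hemopexin complex, was at 753 to 946 CPM in wildtype and 681 to 1124 CPM in knockout livers (0.13, SE 0.16).

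Spic, the transcription factor that haem induces in macrophages that recycle iron, was at 1.96, 191, 290, 98.3 and 0.852 CPM in wildtype A to E and at 1.01, 2.65, 0.933 and 0.702 CPM in knockout A to D. Only wildtype B, C and D were high, whereas wildtype A and E lay within the knockout range. The log2 fold change was -6.46 (SE 2.04). It did not pass with edgeR, but DESeq2 gave -6.48 with an adjusted p of 0.0395. It was -6.57 (SE 2.32) without wildtype A and knockout D, -5.20 with limma voom and -3.71 with the library number as a covariate (adjusted p = 1.00 and 0.997). Over all 39 libraries, Spic exceeded 10 CPM in 5, all wildtype, and the other 34 had at most 3.80 CPM. These 5 were wildtype chow B to D and wildtype Western diet L and M, and L and M were the most alike of the 741 pairs of libraries (chi-square per gene 3.98, against 10.4 in the next pair and 18.1 in the closest pair of chow livers). Whether L and M come from 1 mouse was not tested, and if they did, 4 mice would have had high Spic. The 3 genes whose log2 CPM followed Spic most closely over the 39 libraries were Gm44168 (Pearson r = 0.657), Pnp, purine nucleoside phosphorylase (0.643), and H1fx, a linker histone (0.630). These are descriptions over libraries that share the 5 high values.

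**Figure D2:**
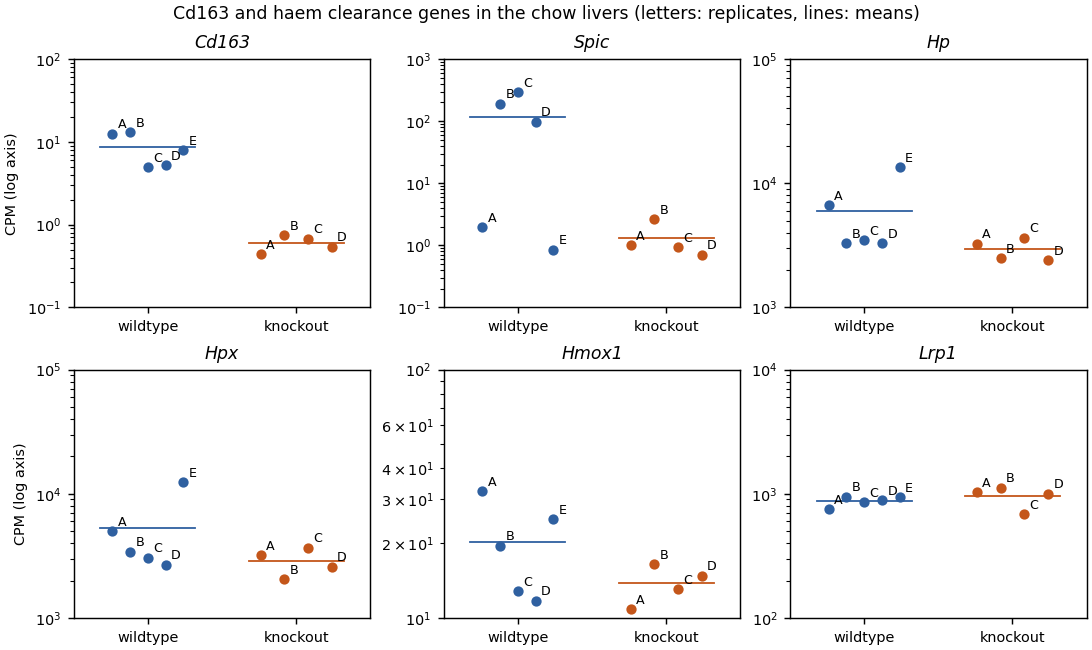
CPM (log axes) of Cd163, Spic, Hp, Hpx, Hmox1 and Lrp1 in each chow liver, with wildtype in blue, knockout in orange, letters for replicates and lines for group means. Cd163 separates the genotypes, Spic is high in wildtype B, C and D only, and Hp, Hpx and Hmox1 are highest in wildtype A and E.

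All 20 genes of the haemoglobin and haem clearance list were tested. Of these, 13 had a negative and 7 a positive log2 fold change, with a median of -0.085, and 1 passed, Cd163. Over all tested genes 7509 were negative and 7787 positive, with a median of 0.0036. Alas1, the first enzyme of haem synthesis in the liver, was highest in knockout C (1267 CPM) and lowest in knockout D (59.4 CPM), with every wildtype liver between them (0.85, SE 0.68). Bach1, the haem-binding repressor of Hmox1, had a log2 fold change of 0.31 (SE 0.19), and Blvrb and Blvra, the biliverdin reductases, had 0.07 (SE 0.21) and 0.10 (SE 0.12).

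Of 27 genes of iron storage and hepcidin control, 24 were tested, 8 had a positive and 16 a negative log2 fold change, and 0 passed (median -0.10). Without wildtype A and knockout D the signs were as many and the median was -0.209. By unadjusted p under 0.05 in edgeR, 2 of the 24 were higher and 0 lower in knockout livers, beside 1.60% of all genes higher and 1.14% lower. The 2 were Smad7, an inhibitor of the BMP signal to hepcidin, and Ireb2, which binds iron-responsive elements. Smad7 was at 15.1, 21.2, 16.1, 18.5 and 21.4 CPM in wildtype and at 31.5, 21.4, 25.4 and 29.6 CPM in knockout livers (0.55, SE 0.22). The knockout values began where the wildtype values ended, at knockout B and wildtype E. Ireb2 was at 54.6 to 72.3 CPM in wildtype and 68.5 to 89.2 CPM in knockout livers (0.29, SE 0.12), and the ranges overlapped.

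Hamp, hepcidin itself, was at 720, 854, 942, 937 and 930 CPM in wildtype and at 1551, 754, 1176 and 316 CPM in knockout livers. Knockout livers held both the highest and the lowest values (0.11, SE 0.64). Slc40a1, ferroportin, was at 53.8 to 86.0 CPM in wildtype and 54.6 to 110 CPM in knockout livers (0.18, SE 0.20). Fth1 and Ftl1, the ferritin chains, had log2 fold changes of -0.07 (SE 0.13) and -0.03 (SE 0.18), and Tfrc, the transferrin receptor, of 0.03 (SE 0.23). These iron genes differed by less than the spread between livers.

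Besides Cd163, the genes called nearest to the threshold here are the 10 with the smallest p in each direction, and none passed. Their shifts were mostly small. Star, which moves cholesterol into mitochondria, was at 2.46, 2.16, 2.89, 2.82 and 2.02 CPM in wildtype and at 3.71, 4.21, 4.15 and 4.05 CPM in knockout livers. All 4 knockout values were above all wildtype values (0.71, SE 0.21). Gpcpd1, a glycerophosphocholine phosphodiesterase, was at 37.08, 30.12, 36.98, 44.34 and 29.57 CPM in wildtype and at 59.9, 61.4, 78.0 and 46.3 CPM in knockout livers, also without overlap (0.79, SE 0.24). Tmed2, a cargo receptor between endoplasmic reticulum and Golgi, was at 63.7, 65.7, 58.0, 56.2 and 57.5 CPM in wildtype and at 46.5, 46.8, 52.8 and 49.1 CPM in knockout livers. This was the one of the 10 lower genes nearest to the threshold whose groups did not overlap (-0.30, SE 0.09).

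BC030867 had the smallest p among the higher genes, and 2 livers carried it. It was at 0.00, 0.0616, 0.248, 0.352 and 0.00 CPM in wildtype and at 8.05, 0.271, 7.29 and 0.216 CPM in knockout livers, so that knockout B and D lay within the wildtype range (4.91, SE 1.33). On Western diet it reached 7.21 CPM in the highest wildtype liver, with a median of 0.122 CPM, and 0.397 CPM in the highest knockout. Prtn3, proteinase 3 of neutrophil granules, was at 1.67, 0.185, 0.165, 0.422 and 11.5 CPM in wildtype and at 0.00, 0.204, 0.0848 and 0.0540 CPM in knockout livers. Its difference came from wildtype E and A (-4.98, SE 1.47).

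The other higher genes of the 10 nearest to the threshold in each direction had log2 fold changes between 0.35 and 0.71. They were Styx, a pseudophosphatase (0.71), Nrxn2, a neurexin (0.70), Zfp609 (0.65), Spen, a repressor that binds RNA (0.49), Cdk2ap1 (0.49), Dido1 (0.40) and Eed, a subunit of Polycomb complex PRC2 (0.35). The other lower ones were Fer1l5, a ferlin (-0.75), Dop1b (-0.67), Wwc1, a scaffold of the Hippo pathway (-0.45), Snupn, which imports spliceosomal particles (-0.42), Manba, lysosomal beta-mannosidase (-0.30), Dad1, a subunit of the oligosaccharyltransferase (-0.26), and Srp9, of the signal recognition particle (-0.23). Tmed2, Dad1 and Srp9 belong to the early secretory path.

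**Figure D3:**
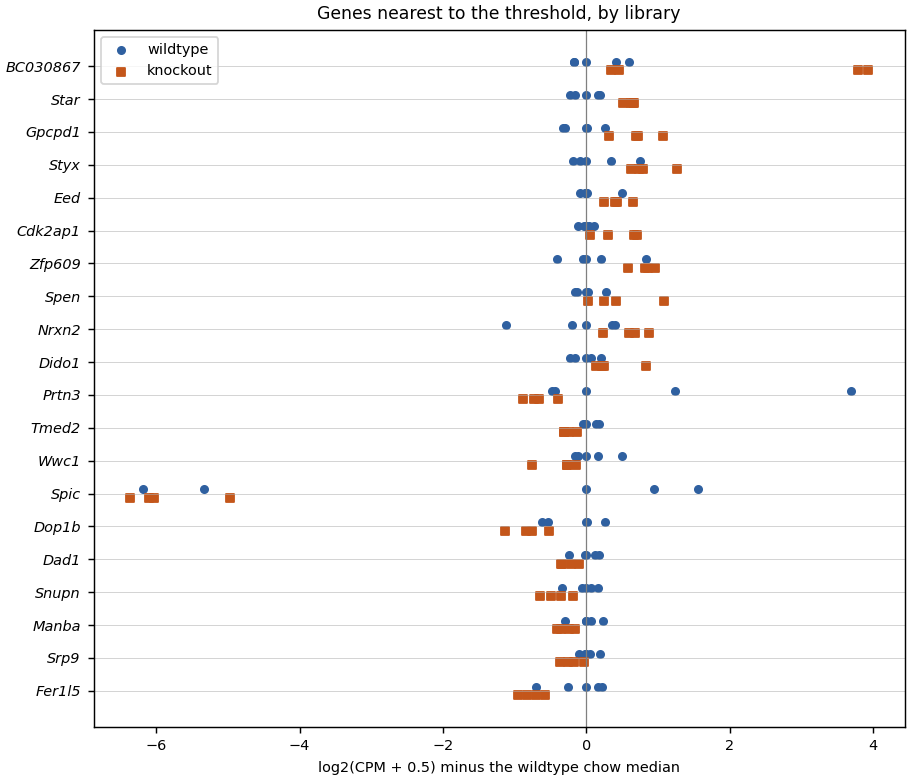
The 10 genes nearest to the threshold in each direction, as log2(CPM + 0.5) minus the wildtype chow median, with 1 point per liver (blue circles wildtype, orange squares knockout). Knockout and wildtype livers separate fully for Star, Gpcpd1 and Tmed2, BC030867 is set by 2 knockout livers, and Spic and Prtn3 by some wildtype livers.

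All 4 knockout livers were above all 5 wildtype livers in 51 genes (0.333% of those tested) and below them in 50 (0.327%). With wildtype A and knockout D left out, the 3 remaining knockout livers were above the 4 wildtype livers in 448 genes (2.93%) and below them in 296 (1.94%), which is no count of tested differences. Arbitrary groups of these sizes also give such genes. Over all splits their mean share, both directions together and without ties, is 0.0159 for the full set and 0.0571 for the smaller set. The counts were not set against other splits of these livers. Genes without overlap in the full set stay so in the smaller set by construction. Among the 51 above, the largest were Eps8l1, an actin regulator (1.04, SE 0.46), Gpcpd1, Star and Plcxd1, a phospholipase C domain protein (0.57, SE 0.31). F3, tissue factor, which starts coagulation (0.53, SE 0.27), and Pms2, of DNA mismatch repair (0.50, SE 0.24), came next. F3 was at 1.57 to 4.35 CPM in wildtype and 4.40 to 4.92 CPM in knockout livers, so that the gap was narrow. Among those below, H1fx was at 1.67, 3.94, 5.61, 3.38 and 1.44 CPM in wildtype and at 0.881, 1.29, 0.678 and 0.216 CPM in knockout livers (-2.06, SE 0.90). Lrg1, an acute phase glycoprotein, followed (-0.82, SE 0.43), then Frzb, a secreted Wnt antagonist (-0.78, SE 0.30), Jdp2, an AP-1 repressor (-0.77, SE 0.42), Creb3l1, a membrane-bound transcription factor of the secretory path (-0.67, SE 0.34), and Opn3 (-0.57, SE 0.41).

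Of 22 markers of resident Kupffer cells, all were tested, 10 had a positive and 12 a negative log2 fold change, and 1 passed, Cd163 (median -0.018). Their summed level was 749 to 1064 CPM in wildtype and 704 to 1045 CPM in knockout livers. Clec4f, a lectin of Kupffer cells, was at 87.0, 101, 65.4, 79.8 and 91.9 CPM in wildtype and at 55.5, 69.8, 110 and 97.3 CPM in knockout livers, with full overlap (-0.03, SE 0.33). Adgre1, which encodes F4/80, had a log2 fold change of -0.0023 (SE 0.44), Timd4, a receptor for dying cells, of 0.18 (SE 0.35) and Vsig4, a complement receptor, of -0.12 (SE 0.46). Marco, a scavenger receptor, ranged from 2.60 to 6.23 CPM in wildtype and from 0.863 to 13.2 CPM in knockout livers (0.58, SE 0.78). Without wildtype A and knockout D, 16 of the 22 were negative (median -0.18). Knockout A was the lowest liver in 12 of the 22, and without it 18 were positive (median 0.103). In whole liver, fewer cells of a type and less RNA per cell cannot be told apart.

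Of 21 other scavenger and asialoglycoprotein receptors, 19 were tested and 0 passed (median 0.10). Stab2, a hyaluronan receptor of sinusoidal endothelium, was at 47.7, 53.8, 53.3, 67.6 and 60.8 CPM in wildtype and at 57.9, 75.5, 75.4 and 75.7 CPM in knockout livers. Knockout A lay within the wildtype range and the other 3 knockouts above it (0.33, SE 0.14). Its partner Stab1 was at 67.9 to 114 CPM in wildtype and 80.3 to 107 CPM in knockout livers (0.17, SE 0.25). All 20 sinusoidal endothelial markers were tested, 14 with a positive log2 fold change, and 0 passed (median 0.030). Wildtype A was the lowest liver in 14 of them and knockout D the highest in 11, and without both livers 17 were negative (median -0.089).

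The acute phase proteins, which hepatocytes secrete under IL-6 and IL-1, had the lowest median of the 42 lists with all 9 livers. All 28 members were tested, all 28 had a negative log2 fold change and 0 passed, with a median of -0.89 beside 0.0036 over all genes. The promoters of Saa1 and Saa2, serum amyloid A, and Lcn2, lipocalin 2, are shown as members with large differences between livers. The sequences are the 250 bases upstream of the start site on GRCm38.p6 from RefSeq, at chr7:46742981-46743230 (minus strand), chr7:46751583-46751832 (plus strand) and chr2:32387740-32387989 (minus strand). Capitals mark matches on either strand to the C/EBP-like letters TTNNGNAA or the NF-kB-like letters GGGNNNNNCC, where adjoining matches run together.
Saa1: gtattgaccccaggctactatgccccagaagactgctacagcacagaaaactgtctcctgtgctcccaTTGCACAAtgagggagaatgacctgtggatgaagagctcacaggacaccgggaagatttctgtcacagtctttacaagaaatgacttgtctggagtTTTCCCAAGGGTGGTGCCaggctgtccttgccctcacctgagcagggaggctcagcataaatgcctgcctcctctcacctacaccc
Saa2: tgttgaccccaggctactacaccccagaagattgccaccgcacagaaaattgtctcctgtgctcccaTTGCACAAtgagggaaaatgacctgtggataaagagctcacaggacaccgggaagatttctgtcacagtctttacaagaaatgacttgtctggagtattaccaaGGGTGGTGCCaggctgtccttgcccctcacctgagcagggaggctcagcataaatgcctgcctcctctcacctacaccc
Lcn2: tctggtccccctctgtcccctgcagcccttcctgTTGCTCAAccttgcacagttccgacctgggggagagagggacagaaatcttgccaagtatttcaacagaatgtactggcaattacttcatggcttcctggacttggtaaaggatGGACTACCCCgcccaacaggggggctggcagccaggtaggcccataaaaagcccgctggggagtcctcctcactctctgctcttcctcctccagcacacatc

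Each of the 3 windows, with the 50 bases after the start site included, held at least 1 match of both kinds and 0 matches to the STAT-like letters TTCNNNGAA. Of 27025 promoters of the same 300 bases, 40.7% held the C/EBP-like, 50.4% the NF-kB-like and 8.47% the STAT-like letters. Of the 23 acute phase genes with a promoter in the table, these were 15, 14 and 6. A match is a description of letters and no binding site. The Saa1 and Saa2 windows share a run of 65 bases, and as these genes are near-identical copies, the split of reads between them is uncertain.

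Saa1 was at 1397, 43.5, 125, 38.3 and 2067 CPM in wildtype A to E and at 35.9, 73.8, 77.6 and 78.6 CPM in knockout A to D. Lcn2, which binds bacterial siderophores, was at 157, 3.08, 2.15, 2.11 and 149 CPM in wildtype and at 3.14, 3.94, 2.88 and 4.64 CPM in knockout livers. In both genes wildtype A and E were far above the other 7 livers, and the lowest value of Lcn2 was in wildtype D. Orm2, an alpha-1-acid glycoprotein, was at 150 and 157 CPM in wildtype A and E and between 4.56 and 10.1 CPM in the other 7 livers.

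Of the 28 members, 23 were higher in both wildtype A and E than in any of the other 7 livers, as were 4.64% of all tested genes. The mean log2 CPM of the list was 8.77 in wildtype A and 8.85 in wildtype E, 6.65 to 7.07 in wildtype B to D and 6.70 to 6.96 in the knockout livers. Without wildtype A and knockout D all 28 remained negative, with a median of -0.69, since wildtype E stayed. With wildtype A and E left out, 21 were negative and the median was -0.13. Leaving out these 2 was a choice made after their acute phase values were seen, and it is given as a description.

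Cytokine and Toll-like receptor genes had their highest mean log2 CPM in the same 2 livers, although 7 of 20 and 9 of 25 tested members were highest in both. Of 25 inflammatory cytokines and chemokines, 20 were tested, 16 had a negative log2 fold change and 0 passed (median -0.33). This became 7 negative and a median of 0.16 without wildtype A and E. Ccl2, which draws monocytes, was at 13.7 and 18.4 CPM in wildtype A and E and between 0.413 and 3.82 CPM in the others (-2.01, SE 1.21). Cxcl1, a neutrophil chemokine, was at 112.9, 15.03, 50.03, 7.53 and 313.4 CPM in wildtype and at 13.1, 18.5, 47.7 and 12.2 CPM in knockout livers (-2.14, SE 1.34). Cxcl12, a chemokine of stromal cells, was less uneven, at 290 to 459 CPM in wildtype and 251 to 310 CPM in knockout livers (-0.27, SE 0.13).

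Of 26 Toll-like receptor and NF-kB genes, 25 were tested, 17 were negative and 0 passed (median -0.21), and without wildtype A and E, 9 were negative (median 0.094). Lbp, which presents bacterial lipopolysaccharide to its receptor, was at 270 and 245 CPM in wildtype A and E and between 53.2 and 84.9 CPM in the others. Tlr4, that receptor, was at 2.46, 1.60, 0.660, 1.20 and 1.60 CPM in wildtype and at 0.692, 0.407, 0.170 and 1.73 CPM in knockout livers (-0.95, SE 0.46), and knockout A and D stood within the wildtype range. The 19 tested genes of IL-6 and IL-1 signalling did not share this order, with the highest mean log2 CPM in wildtype C (5.13), then wildtype E (5.09) and knockout B (5.04), and with 14 negative and 0 passing (median -0.15). Of 34 interferon-stimulated genes 16 had a positive log2 fold change and 0 passed (median -0.022, and 0.080 without wildtype A and knockout D). Of 17 MHC antigen processing genes 12 were negative and 0 passed (median -0.041), with wildtype E and A highest, and 6 were negative without these (median 0.080).

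Markers of neutrophils were highest in wildtype E. Of 21 markers, 10 were tested, 7 were negative and 0 passed (median -0.84). Their summed level was 168.5 CPM in wildtype A, 184 CPM in wildtype E and 7.35 to 15.95 CPM in the other 7 livers. Lcn2, which hepatocytes also make and which stands in both lists, held most of it. Without Lcn2 the sum was 11.2 CPM in wildtype A, 35.4 CPM in wildtype E and 5.20 to 12.01 CPM in the others, so that wildtype A lay within the range of the other livers. S100a8 and S100a9, the calprotectin chains, were at 3.62 and 5.59 CPM in wildtype E and at most 0.942 and 1.38 CPM elsewhere. Ltf, lactoferrin, was listed at 0 in wildtype A, B and D and in knockout B. When both livers were left out, 1 of the 10 markers was negative (median 0.65). The part of neutrophils in the acute phase values was not tested.

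Of 17 markers of recruited and lipid-associated macrophages, 15 were tested, 12 were negative and 0 passed (median -0.23). Their mean log2 CPM was 2.25 and 2.46 in wildtype A and E, 1.24 to 1.74 in wildtype B to D and 1.27 to 1.72 in knockout livers. Cx3cr1, the fractalkine receptor, was at 2.54 and 4.58 CPM in wildtype A and E and between 0.881 and 2.11 CPM in the others (-0.89, SE 0.51). Metallothioneins Mt1 and Mt2, which bind zinc, had the same form, with Mt1 at 39.7 and 96.9 CPM in wildtype A and E and between 4.72 and 10.0 CPM in the others. Of 28 lymphocyte markers 15 were tested, and of 20 erythroid markers 11, with 0 passing and medians of -0.037 and -0.16. These medians were 0.32 and 0.091 without wildtype A and E, and 0.225 and -0.28 without wildtype A and knockout D.

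**Figure D4:**
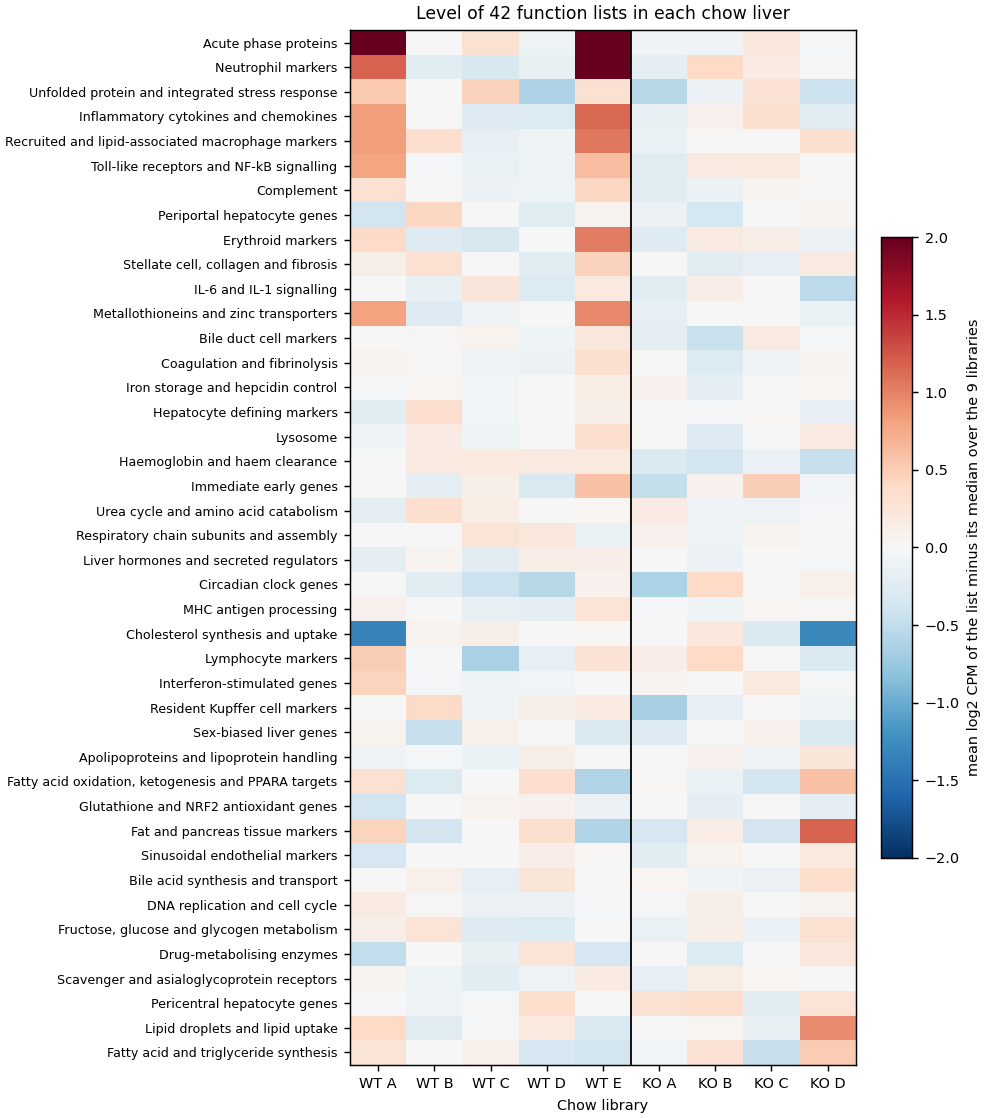
Mean log2 CPM of each of 42 function lists in each chow liver, minus the median of the list over the 9 livers, as colour (red above, blue below, colours saturated at 2), ordered by the median genotype difference. Wildtype A and E are red for the acute phase, neutrophil, cytokine and Toll-like receptor lists, wildtype A and knockout D are blue for cholesterol synthesis, and knockout D is red for lipid droplets.

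Complement and coagulation proteins also come from hepatocytes and gave smaller shifts. Of 31 complement genes, 30 were tested, 25 were negative and 0 passed (median -0.18). Vtn, vitronectin, was at 2733 to 4802 CPM in wildtype and 2280 to 3537 CPM in knockout livers (-0.29, SE 0.17). The complement median was -0.0069 without wildtype A and E. Of 30 coagulation and fibrinolysis genes, 23 were negative and 0 passed (median -0.11). Serpinf2, the plasmin inhibitor, was at 618 to 1058 CPM in wildtype and 555 to 769 CPM in knockout livers (-0.32, SE 0.17). The genotypes overlapped in all but 2 members of these lists, F3 and Masp2, a protease of the lectin pathway, both above in knockout livers, as were 0.333% of all genes. Masp2 was at 167.7 to 180.8 CPM in wildtype and 180.8 to 208.7 CPM in knockout livers (0.13, SE 0.10), so the nearest livers of the genotypes had the same value as printed.

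Genes of the unfolded protein and integrated stress response stayed on the lower side when those livers were left out. All 32 members were tested, 26 were negative and 0 passed, with a median of -0.35, which was -0.25 without wildtype A and knockout D and -0.23 without wildtype A and E. Knockout A was the lowest liver in 14 of the 32, and wildtype A and C were the highest in 11 and 10. Hspa5, the main chaperone of the endoplasmic reticulum, was at 2335, 1253, 1918, 694 and 1475 CPM in wildtype and at 647, 938, 1862 and 1008 CPM in knockout livers (-0.46, SE 0.40). Wildtype D lay with the low knockouts and knockout C with the high wildtypes. Pdia4, a disulfide isomerase, was at 613, 396, 552, 277 and 437 CPM in wildtype and at 236, 324, 369 and 294 CPM in knockout livers (-0.57, SE 0.33). Canx and Calr, the lectin chaperones, had log2 fold changes of -0.30 (SE 0.16) and -0.33 (SE 0.18).

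Derl3, a factor of protein retrotranslocation, was at 36.1, 9.42, 51.6, 3.80 and 20.1 CPM in wildtype and at 2.45, 12.76, 20.01 and 4.32 CPM in knockout livers, lowest in knockout A, wildtype D and knockout D. Ern1, the sensor IRE1, went the other way, at 83.2, 62.8, 52.0, 79.0 and 56.5 CPM in wildtype and at 95.5, 84.5, 114 and 73.2 CPM in knockout livers (0.46, SE 0.24). Xbp1, whose transcript IRE1 splices, had a log2 fold change of 0.0018 (SE 0.25), and Ddit3, which encodes CHOP, of -0.14 (SE 0.38). The count table does not separate spliced from unspliced Xbp1.

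Of 35 stellate cell, collagen and fibrosis genes, 34 were tested, 27 were negative and 0 passed (median -0.16). By unadjusted p under 0.05 in edgeR, 4 were lower and 0 higher, beside 1.14% of all genes lower and 1.60% higher. Col4a2, a chain of basement membrane collagen, was at 62.4, 51.1, 51.8, 31.3 and 51.8 CPM in wildtype and at 32.6, 26.5, 28.6 and 45.0 CPM in knockout livers. Wildtype D, which lay below knockout A and D, broke the separation (-0.58, SE 0.23). Its partner Col4a1 ran alike, at 43.4 to 77.2 CPM in wildtype and 37.6 to 62.4 CPM in knockout livers (-0.45, SE 0.23). Des, desmin of stellate cells, was at 8.73 to 12.04 CPM in wildtype and 6.87 to 8.21 CPM in knockout livers, without overlap (-0.44, SE 0.22). Tagln, a smooth muscle actin-binding protein, and Thbs1, thrombospondin 1, had -0.70 (SE 0.33) and -1.19 (SE 0.56). The fibrillar collagens did not share this size, with Col1a1 at -0.29 (SE 0.53) and Col3a1 at -0.08 (SE 0.44). In the 7 livers left without wildtype A and knockout D, 31 of the 34 were negative and the median was -0.31, and without wildtype A and E it was -0.086.

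Of 13 bile duct markers, 11 were tested, 10 were negative and 0 passed (median -0.14). Sox9, the transcription factor of bile duct cells, was at 27.23, 15.95, 26.83, 15.62 and 23.92 CPM in wildtype and at 12.5, 16.4, 11.8 and 9.98 CPM in knockout livers. Knockout B alone reached into the wildtype range (-0.79, SE 0.32).

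Genes of cholesterol synthesis were low in wildtype A and knockout D, with a mean log2 CPM of 5.54 and 5.59 against 6.59 to 7.09 in the other 7 livers. Of 29 cholesterol synthesis and uptake genes, 28 were tested, 16 were negative and 0 passed (median -0.040). Sqle, squalene epoxidase, was at 8.26, 90.4, 102, 84.2 and 94.3 CPM in wildtype and at 62.2, 112, 71.9 and 3.29 CPM in knockout livers. Wildtype A and knockout D were the lowest of their groups. Srebf2, which encodes the sterol-regulated activator of these genes, was at 39.98 CPM in wildtype A and 80.2 to 88.6 CPM in wildtype B to E, and at 48.6 to 77.1 CPM in knockout livers (-0.29, SE 0.19). The list median was -0.074 without wildtype A and knockout D.

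Of 27 lipid droplet and lipid uptake genes, 26 were tested, 20 were positive and 0 passed (median 0.15), and without wildtype A and knockout D 13 were positive (median 0.0082). Knockout D had the highest mean log2 CPM (6.34) and wildtype A the next (5.79), close to wildtype D (5.58). Cidec, which enlarges lipid droplets, was at 9.27, 3.57, 6.19, 5.70 and 3.09 CPM in wildtype and at 5.91, 6.51, 6.87 and 28.6 CPM in knockout livers. Mfsd2a, a lipid transporter, was at 42.2 CPM in wildtype A and 85.7 CPM in knockout D, and between 2.66 and 16.6 CPM in the others. Apoa4, an apolipoprotein of triglyceride-rich particles, was at 1007 CPM in knockout D, 190 CPM in wildtype A and 56.6 to 116 CPM in the others (1.61, SE 0.73), and its log2 fold change was 0.09 without these libraries. Cyp2b9, a cytochrome P450 of female-biased expression, was at 11.5 CPM in knockout D and at most 0.282 CPM elsewhere. Cfd, adipsin, was at 31.2 CPM in knockout D, 6.01 CPM in wildtype A and at most 1.55 CPM elsewhere, and of the 22 fat and pancreas markers 4 were tested.

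Fatty acid and triglyceride synthesis had the highest median of the 42 lists, at 0.21, with 17 of 27 members positive and 0 passing, and 0.062 without wildtype A and knockout D. Acacb, which makes the malonyl-CoA that limits fat oxidation, was at 73.1, 108, 104, 62.8 and 45.7 CPM in wildtype and at 97.4, 261, 58.0 and 125 CPM in knockout livers (0.78, SE 0.47). Elovl3, a fatty acid elongase, was at 955, 1297, 1302, 1222 and 379 CPM in wildtype and at 941, 772, 596 and 455 CPM in knockout livers. The knockouts lay below 4 of the 5 wildtype livers and above wildtype E (-0.58, SE 0.30). Fatty acid oxidation and PPARA targets had 19 of 37 members positive and 0 passing (median 7.47e-05, and -0.11 without wildtype A and knockout D). Ppara, the nuclear receptor of this programme, was at 67.3, 46.6, 29.0, 72.8 and 44.3 CPM in wildtype and at 63.0, 98.1, 47.3 and 102 CPM in knockout livers (0.58, SE 0.28).

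Apolipoproteins, bile acid genes, sugar metabolism and drug-metabolising enzymes had medians of -0.0091, 0.047, 0.076 and 0.094 over 27, 28, 30 and 34 tested members, with 0 passing. With wildtype A and knockout D left out they were -0.031, -0.079, -0.0058 and -0.046. Apoc2, an activator of lipoprotein lipase, was at 3.14 to 8.13 CPM in wildtype and 2.80 to 21.5 CPM in knockout livers (0.84, SE 0.42). Baat, which conjugates bile acids, was at 284 to 362 CPM in wildtype and 238 to 289 CPM in knockout livers (-0.21, SE 0.12). Gckr, the regulator of glucokinase, was at 320 to 474 CPM in wildtype and 402.4 to 577.7 CPM in knockout livers (0.22, SE 0.14). Cyp3a13 was at 80.3 to 149 CPM in wildtype and 61.8 to 84.1 CPM in knockout livers (-0.50, SE 0.26). Each of these ranges overlapped.

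Hepatocyte zonation showed no tested difference. Pericentral genes had 17 of 23 members positive (median 0.15) and periportal genes 18 of 22 negative (median -0.17), with 0 passing in either. Without wildtype A and knockout D the medians were 0.07 and -0.298. Sp5, a Wnt target, was at 3.839, 4.496, 7.100, 8.80 and 4.48 CPM in wildtype and at 9.69, 13.2, 2.97 and 10.4 CPM in knockout livers. Knockout C was the lowest of all 9 livers and the other 3 knockouts the highest (0.67, SE 0.36). Sdsl, a serine dehydratase-like enzyme, was at 11.4 to 29.5 CPM in wildtype and 13.8 to 24.2 CPM in knockout livers (-0.35, SE 0.21). Urea cycle and amino acid genes had 27 of 41 members negative and 0 passing (median -0.065), and 34 were negative without wildtype A and knockout D (median -0.144). Tat, tyrosine aminotransferase, was at 852 to 3028 CPM in wildtype and 921.7 to 1827 CPM in knockout livers (-0.54, SE 0.33).

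Lists of cell upkeep had medians within 0.1 of zero with all 9 livers, but without wildtype A and knockout D those of the lysosome and the respiratory chain were -0.223 and -0.113. Knockout B was the lowest liver in 18 of 33 lysosome and 12 of 35 respiratory chain genes. Wildtype E was the highest in 19 lysosome genes and wildtype C in 18 respiratory chain genes. Respiratory chain genes had 31 of 35 members negative, with small shifts and 0 passing (median -0.051), and Sdhc, of complex II, was at 143 to 197 CPM in wildtype and 126 to 176 CPM in knockout livers (-0.18, SE 0.09). Of 33 lysosome genes, 26 were negative and 0 passed (median -0.091). Its 2 members nearest to the threshold were higher in knockout livers, Mcoln1, a calcium channel of the lysosome, at 46.5 to 58.9 against 56.1 to 72.3 CPM (0.28, SE 0.12), and Tfeb, a transcription factor of lysosome genes, at 10.3 to 15.9 against 15.1 to 18.4 CPM (0.27, SE 0.12). Glutathione and NRF2 genes had a median of 0.00097 over 31 tested members and cell cycle genes one of 0.068 over 30, with 0 passing. Cdkn1a, the cell cycle inhibitor p21, was at 41.00, 47.85, 22.04, 7.319 and 10.2 CPM in wildtype and at 12.96, 7.668, 5.256 and 27.57 CPM in knockout livers (-0.93, SE 0.57).

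The clock genes spread widely in both genotypes. Of 20 members 9 were positive and 0 passed (median -0.045). Nr1d2, a repressor of the clock, was at 40.4, 23.9, 15.3, 25.8 and 52.7 CPM in wildtype and at 25.2, 68.1, 63.1 and 49.9 CPM in knockout livers (0.70, SE 0.35). Tef, a clock output factor, was at 33.97, 43.05, 30.13, 38.99 and 72.82 CPM in wildtype and at 33.7, 116, 77.3 and 74.1 CPM in knockout livers (0.78, SE 0.42). Knockout A lay with wildtype B to D, and wildtype E nearer to the other knockouts. The hour of dissection is not given in the labels, and its part in these values was not tested. Immediate early genes had a median of -0.066 and secreted regulators one of -0.051, with 0 passing.

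**Figure D5:**
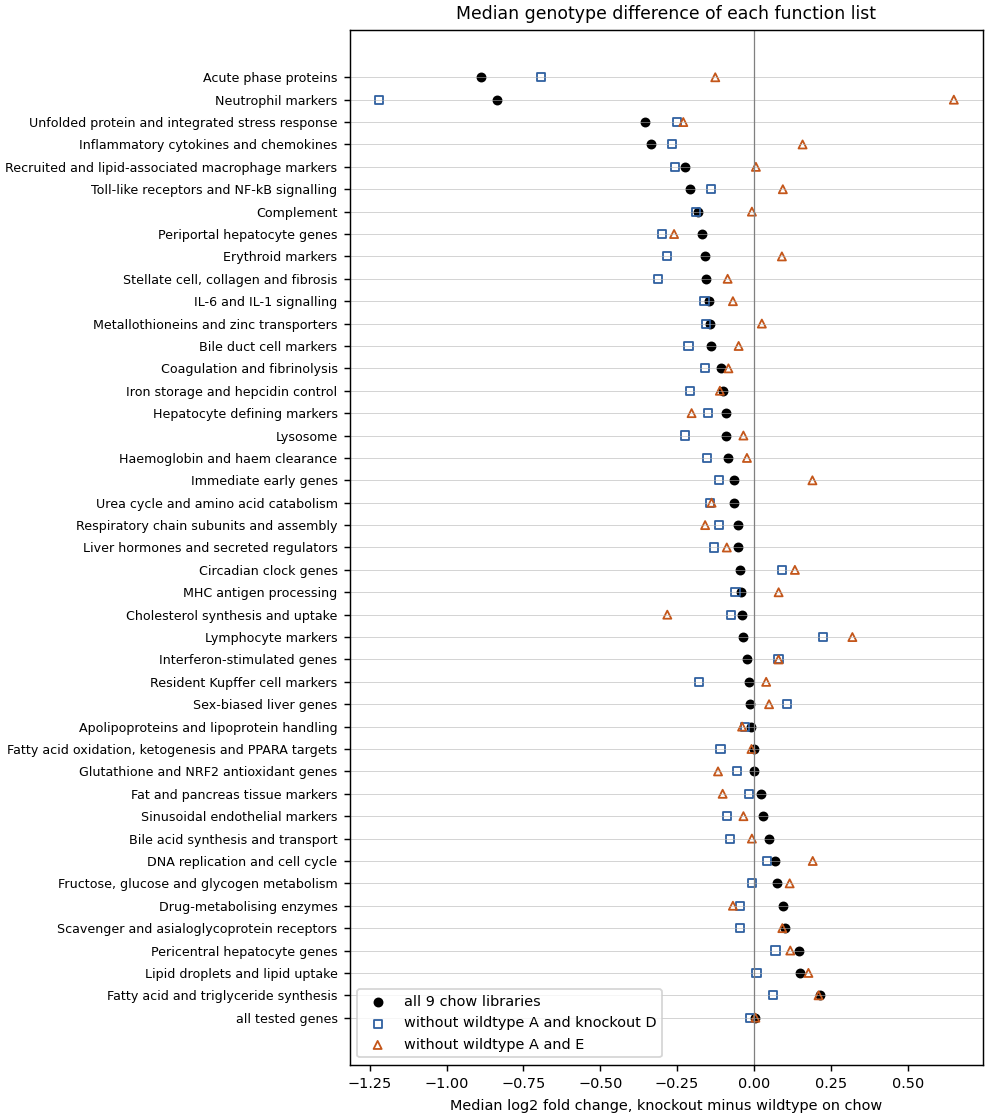
Median log2 fold change (knockout minus wildtype on chow) of each of 42 function lists and of all tested genes, with all 9 livers (black circles), without wildtype A and knockout D (blue squares) and without wildtype A and E (orange triangles). Acute phase proteins are at -0.89, -0.69 and -0.13, and neutrophil markers at -0.84, -1.22 and 0.65.

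Over the 42 lists, 30 medians were negative and 12 positive with all 9 livers, 34 and 8 without wildtype A and knockout D, and 23 and 19 without wildtype A and E. In 7 lists the median was more than 0.2 from zero, and with 1 liver left out this held for 2 (without wildtype E) to 13 lists (without wildtype D or knockout C), and for 12 without wildtype A and knockout D. The median turned sign in 12 of the 42 lists when wildtype A and knockout D were left out. Those figures are a description, since no list was tested. Of the 921 members of any list that could be tested, Cd163 was the 1 called.

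The genotype difference on chow was set against that on Western diet, with 15 libraries of each genotype. On the diet genes, wildtype Western diet A and knockout Western diet M were at 0.202 and 0.126, near chow, and the other 28 at 0.823 to 1.25. The test of the difference between the diets called 0 genes (edgeR adjusted p = 1.00 for each gene), with 1.86% of genes at an unadjusted p under 0.05. It also called 0 without the 4 libraries that stand with the other diet (lowest adjusted p 0.999, 3.25% at an unadjusted p under 0.05) and without wildtype Western diet M alone. Cd163 had a log2 fold change of -4.50 on Western diet, and its difference between the diets was 0.64 (SE 0.61). BC030867 differed most among the genes named here, by 6.47 (SE 1.52), without passing. Star, Gpcpd1 and Tmed2 had log2 fold changes of -0.10, 0.10 and -0.02 on Western diet, against 0.71, 0.79 and -0.30 on chow. Their differences between the diets were 0.81 (SE 0.24), 0.69 (SE 0.27) and -0.29 (SE 0.11), none past the threshold. Without the 4 libraries these were 0.77 (SE 0.26), 0.82 (SE 0.31) and -0.30 (SE 0.12). BC030867, Star, Gpcpd1 and Tmed2 were named for their small p on chow, so the contrast with Western diet was partly set by that choice. Acute phase genes were negative on Western diet in 27 of 28 (median -0.43), the unfolded protein list in 20 of 32 (median -0.047) and the stellate cell list in 11 of 34 (median 0.031). The mean log2 CPM of the acute phase list had medians of 7.54 in wildtype and 7.13 in knockout livers on Western diet, between the levels of wildtype A and E and those of the other chow livers.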

How the data were processed

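RNA from 39 snap-frozen livers was sequenced as paired reads on a NovaSeq instrument, per the labels' protocols. Raw counts per gene were deposited, which the authors made with STAR 2.7.8a on GRCm39 and featureCounts 2.0, per the submitters' processing notes. The annotation release and strand setting are not given in the sources used here, so reads of overlapping genes cannot be told apart. Of 55416 identifiers 52083 matched a symbol (99.4% of counts).

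The 9 chow libraries are those labelled chow. Low genes were removed with filterByExpr in edgeR 4.0.16 (minimum count 10, minimum total 15). After TMM scaling, a robust quasi-likelihood fit with 1 coefficient for each group was made on all 39 libraries in R 4.3.3, so the spread comes from all groups. P-values were adjusted by Benjamini-Hochberg across every tested gene and called below 0.05. The fit was tested on simulated data. Diet genes are those called at a log2 difference of at least 1 between the diets with 35 libraries. A library's genes far from the median use log2 CPM with a prior count of 2. The permutation test used log2(CPM + 0.1).

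The 42 lists hold 1010 genes. Members and lists were chosen with earlier results of these data known. The rule for named genes takes Cd163, the 10 genes with the smallest p in each direction and the 6 largest of each direction without overlap (mean of at least 1 CPM, no predicted names), 2 members of each list with the smallest p, 5 haem genes and 4 neighbours on each side of Cd163. Some genes that the rule takes are not reported here. Members of a list beyond these were chosen after their values were seen. Alternatives were fits without named libraries, the 9 chow libraries alone, RLE size factors, DESeq2 1.42.0, limma 3.58.1 voom with quality weights, no filter, a replicate block and the library number. Promoters are from RefSeq (GRCm38.p6), neighbours from a GRCm38 annotation. No library was moved to another group.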

Additional observations from a re-analysis of the deposited data

Results flagged for a closer look

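Among the 232 groups searched (116 genes taken by the naming rule in each genotype on chow), 27 held a liver far from the others of its group by Dixon's test. With normally distributed values the test flags about 1 in 20 groups. Many of these genes were taken by their values in the same livers, and CPM were used without a log. That rate is therefore no yardstick for the 27. Of the 27, 7 were wildtype A and 6 were knockout D, the libraries placed with the Western diet livers, and the part of the diet in them was not tested.

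Knockout D was the highest of its group for Apoa4 (1007 CPM, others 71.5 to 105.5), Mfsd2a (85.7 CPM), Cfd (31.2 CPM), Cidec (28.6 CPM), Cyp2b9 (11.5 CPM) and Slc2a4, an insulin-responsive glucose transporter (2.81 CPM, others 0.189 to 0.543). Wildtype A was the highest for Baat (362 CPM), Mfsd2a (42.2 CPM), Eed (22.8 CPM), Cfd (6.01 CPM) and Slc2a4 (1.23 CPM). It was the lowest for Srebf2 (39.98 CPM) and for Agt, angiotensinogen (441 CPM, others 774 to 853).

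Wildtype E was the highest for Hpx (12460 CPM), Lrg1 (1976 CPM, others 580.5 to 845) and Prtn3 (11.5 CPM). Wildtype B was the highest for Il6ra, an IL-6 receptor chain (79.6 CPM, others 20.9 to 33.5). Wildtype D was the lowest for Tagln (1.83 CPM) and the highest for Cyp2b9 (0.282 CPM, others at 0).

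Knockout C was the highest for Iigp1, an interferon-induced GTPase (287 CPM), Ccl2 (3.82 CPM) and Klf4, an immediate early transcription factor (2.63 CPM). Knockout B was the highest for Dido1 (86.9 CPM) and Spic (2.65 CPM) and the lowest for Cox5a, a subunit of cytochrome c oxidase (99.8 CPM, others 139 to 141). Knockout A was the lowest for Stab2 (57.9 CPM) and Clec4a2 (0.315 CPM).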

How the results depend on the processing

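Cd163 kept its direction in every alternative, with log2 fold changes between -4.01 and -3.67 when 1 chow library was left out at a time, and 1 gene was called each time. DESeq2 called 2 genes, Cd163 and Spic (Spic -6.48), and limma voom with sample quality weights called 0, with Cd163 at -3.81 and 3.78% of genes at an unadjusted p under 0.05 (2.74% with edgeR). RLE size factors, no filter on low counts, the 9 chow libraries alone and the library number as a covariate each called Cd163 alone. Spic was -3.71 with the library number. The test between the diets called 0 genes with and without the doubted libraries. The labels do not say whether replicate letters pair mice. Same-lettered chow livers, as deviations from their group means, had correlations from -0.336 to 0.146, and these few pairs cannot settle it. With the letter as a replicate block Cd163 was the 1 gene called (-3.75). Without the 4 libraries that stand with the other diet it was also 1 gene.

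Genes without overlap went from 51 above and 50 below to 448 and 296 without wildtype A and knockout D and to 336 and 283 without wildtype A and E, and lay between 79 and 240 above and between 84 and 180 below with 1 library left out. Fewer livers leave more genes without overlap by construction.

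None of the single genes reported here that turned direction was called, and the cause was not tested. Without wildtype A and knockout D these were Irgm1 (0.016) and Pex5 (-0.11), and without all 4 diet-like libraries 0.0084 and -0.12. Without wildtype A and E they were Lcn2 (0.57), Ccl2 (1.32), Trat1 (0.39), Mt2 (0.79), Clec4a2 (0.86) and Pex5 (-0.0085), and with knockout D left out too, Lcn2 (0.41), Ccl2 (1.47), Trat1 (0.61), Cfd (-0.17), Mt2 (1.08), Clec4a2 (0.78), Pex5 (-0.12) and Clstn3 (-0.019). Clec4a3 turned to -0.022 with limma voom and -0.077 with the library number. With 1 library left out, the ranges that crossed zero by a turn were Abcg8 (-0.15 to 0.96), Apoa4 (-0.25 to 1.97), Car3 (-0.22 to 0.096), Cfd (-1.20 to 3.52), Clec4a2 (-0.54 to 0.29), Clec4a3 (-0.28 to 0.37), Clstn3 (-0.058 to 0.66), Mfsd2a (-0.25 to 1.81), Pex5 (-0.087 to 0.10) and Vmn2r20 (-0.16 to 0.55). The groups of 4 and 5 livers limit the precision of each value.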

Other observations

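Genes outside the function lists were also counted by their place in wildtype A and E. Of the 14375 tested genes in no list, 603 (4.19%) were higher in both of these livers than in any of the other 7 chow livers, and 481 (3.35%) were lower. Both livers were chosen after their acute phase values were seen, so these shares are a description. No other pair of livers was counted, so the shares do not show that this pair stands apart outside the lists.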
